A study of Homo sapiens with 2 samples.

Results

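LDB1 binding was described at the 9 genes of the NFE2, small MAF and BACH families, out of the 19974 protein-coding genes of the autosomes and chromosome X. The 9 were taken by gene family, with earlier results of these data known: NFE2, NFE2L1, NFE2L2, NFE2L3, MAFK, MAFG, MAFF, BACH1 and BACH2. All were found in the gene table. A peak was counted for a gene when its midpoint lay between the gene's ends or no more than 10 kb outside them, and a distance of 50 kb was used as well. By the 10 kb rule 38 peaks were counted for the 9 genes, and by the 50 kb rule 96 were. Of the 38, 22 also lay within 10 kb of another protein-coding gene. These were 10 of 11 at MAFK, 4 of 7 at NFE2, all 4 at MAFG and both at NFE2L1 and at MAFF. A count therefore does not assign a peak to a gene.

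These families encode basic leucine zipper factors that meet as pairs on DNA. NFE2 and its relatives NFE2L1, NFE2L2 and NFE2L3 carry a cap'n'collar domain and activate transcription. The small MAF proteins MAFK, MAFG and MAFF lack an activation domain and are their obligate partners. BACH1 and BACH2 pair with the same small MAF proteins and repress many of the same sites, and BACH1 lets go of DNA when it binds haem. NFE2 itself is a blood factor, needed for platelet release and active at the globin genes, where it works near complexes built on LDB1.

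The study held 2 CUT&Tag libraries of untreated NB4 cells, an acute promyelocytic leukaemia line with the PML::RARA fusion. CUT&Tag uses an antibody to bring the Tn5 transposase to chromatin, where it cuts and tags the DNA for sequencing. The antibody was against LDB1, an adaptor protein of blood transcription complexes with GATA and TAL1 factors, in 1 library and was IgG, the background control, in the other. Each was made once, so no value here has a replicate check, and the IgG library was not analysed here. The LDB1 list held 53742 peaks, 52765 of them on chromosomes 1 to 22 and X, with a median width there of 550 bp (range 323 to 14368 bp). It gave positions and widths only, so the depth is unknown and the identity of the cells could not be checked against marker levels. All positions are hg38, counted from 1, and the gene table is RefSeq's GRCh38.p14.

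Promoter sequence was available from RefSeq for 7 of the 9 genes, in 12 windows of 250 bases ending just before an annotated transcription start. NFE2 and MAFK had no window. An LDB1 peak overlapped a window, taken with the first 50 bases of the transcript, at NFE2L2, NFE2L3 and BACH1, which is 3 of 7 genes, where 28.0% of 15812 protein-coding genes with a window had such an overlap. By window the count was 5 of 12, against 24.3% of 22132 windows. The most upstream window of each of these 3 genes is shown, although at BACH1 it lies just outside the peak. That of MAFF is shown beside them as a start with no peak near it. Each is written from 250 bases before the start to the last base before it, on the gene's own strand. Capitals mark letters of the searched motifs that bear on blood and bZIP factors.
NFE2L2: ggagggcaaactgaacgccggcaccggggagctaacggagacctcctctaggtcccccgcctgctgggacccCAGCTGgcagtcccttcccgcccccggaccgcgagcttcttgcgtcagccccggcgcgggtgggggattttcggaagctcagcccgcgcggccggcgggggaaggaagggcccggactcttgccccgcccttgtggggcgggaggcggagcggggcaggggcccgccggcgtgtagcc
NFE2L3: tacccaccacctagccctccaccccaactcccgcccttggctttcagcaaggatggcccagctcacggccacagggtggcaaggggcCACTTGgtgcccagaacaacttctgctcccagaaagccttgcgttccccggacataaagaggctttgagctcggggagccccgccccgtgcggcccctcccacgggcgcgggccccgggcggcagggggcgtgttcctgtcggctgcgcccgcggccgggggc
BACH1: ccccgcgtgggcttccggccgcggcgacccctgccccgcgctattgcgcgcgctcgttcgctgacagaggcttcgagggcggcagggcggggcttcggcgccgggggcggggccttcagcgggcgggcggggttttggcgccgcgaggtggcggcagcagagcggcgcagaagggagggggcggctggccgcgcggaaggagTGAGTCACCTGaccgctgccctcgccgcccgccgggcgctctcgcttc
MAFF: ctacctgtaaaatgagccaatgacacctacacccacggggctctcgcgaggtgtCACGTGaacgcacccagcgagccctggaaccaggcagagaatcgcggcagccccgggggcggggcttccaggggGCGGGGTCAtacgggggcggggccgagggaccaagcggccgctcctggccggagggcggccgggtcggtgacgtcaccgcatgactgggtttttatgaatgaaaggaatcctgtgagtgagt

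The windows lie at chr2:177264728-177264977 (minus strand, NFE2L2), chr7:26151948-26152197 (plus strand, NFE2L3), chr21:29298672-29298921 (plus strand, BACH1) and chr22:38201744-38201993 (plus strand, MAFF). All 250 bases of the NFE2L2 window lay inside its peak, and 173 of 250 did at NFE2L3. At BACH1 none did, because the peak began 26 bases after this start. A later BACH1 start lay within the same peak with all 250 bases before it, and that window held none of the searched motifs. The NFE2L2 window held the E-box CAGCTG with its first base 178 bases before the start. The NFE2L3 window held CACTTG at 163 bases and the MAFF window CACGTG at 196 bases. The MAFF window also held GCGGGGTCA at 122 bases, a match on the other strand to TGANNNNGC, the antioxidant response core. In the BACH1 window TGAGTCA, the core shared by AP-1 and NFE2 dimers, began 48 bases before the start and overlapped the E-box CACCTG at 43 bases.

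Motif letters were searched on both strands in all 12 windows and in all 22132 windows of protein-coding genes. The E-box CANNTG, read by basic helix-loop-helix factors, was in 7 of 12 windows of these genes and in 58.1% of all windows. Its narrower form CAGNTG, which CANNTG contains, was in 3 of 12 and in 40.2%. The GATA letters AGATAA and TGATAA were each in 1 of 12, against 7.08 and 4.93% of all windows, and both matches were in the third BACH1 window, which no peak overlapped. TGANTCA was in 1 of 12 against 5.35%, and the antioxidant response core TGANNNNGC in 4 of 12 against 35.0%. The NFE2-type site, the AP-1 core with the MAF-specific flank on 1 side, was in none of the 12 and in 0.0949% of all windows. The GC content of the 12 windows ran from 32.4 to 80.4%, with a median of 62% over all windows.

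Every one of the 9 genes had at least 1 LDB1 peak by the 10 kb rule, as did 70.1% of all protein-coding genes. Among genes of like length (the same of 10 equal classes of gene length) the share was 66.3 to 86.8%, which summed to 6.40 of 9. The number of peaks ran from 1 at NFE2L2 and BACH1 to 11 at MAFK, with a median of 4 against 1 over all genes. With 50 kb all 9 had a peak against 86.1% of genes, and the median was 9 against 3. MAFK and NFE2 together held 18 of the 38 peaks. The chart of peaks by gene shows MAFK far above the others at 50 kb and BACH1 at 1 whichever distance was used.

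**Figure D1:**
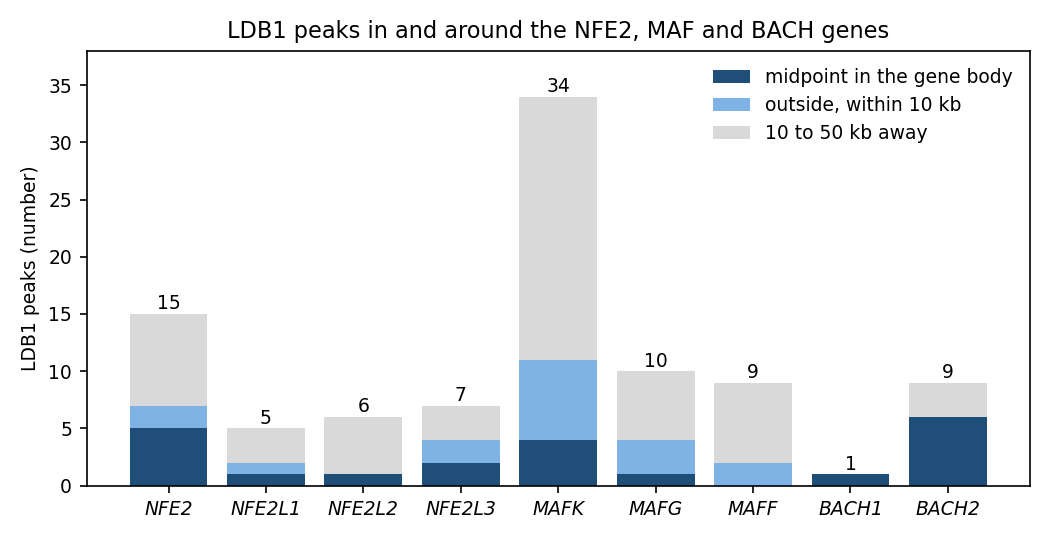
Number of LDB1 peaks (vertical axis) for each gene, split by where the midpoint lay; the number on top of each bar is the total with 50 kb. MAFK reaches 34 and NFE2 15, the 3 relatives of NFE2 5 to 7, and BACH1 has 1.

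A peak lay inside the gene for 8 of 9, against 54.5% of protein-coding genes, and 7 of 9 had a midpoint no further than 1 kb from either end, against 37.6%. The gene without a peak inside it was MAFF, and the genes without a peak at an end were MAFF and NFE2L1. Of the 5 genes with a peak at an end and a known strand, NFE2L2, NFE2L3, BACH1 and BACH2 had it at the end where transcription starts and MAFG at the other end. For NFE2 and MAFK the strand was not in the promoter table, so which end was hit is given by coordinate only. Nothing was tested between genes, since there was 1 library.

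Peaks of these genes had a median width of 691.5 bp against 550 bp over all peaks, and 8 of 38 (21.1%) were at least 1 kb wide, against 16.5% of all peaks. Both excesses came from MAFK. For the 27 peaks without MAFK, the median width and the share at least 1 kb wide were below those of all peaks. Those 8 lay at MAFK (4), NFE2 (2), NFE2L2 (1) and NFE2L3 (1). No peak of NFE2L1, MAFG, MAFF, BACH1 or BACH2 reached 1 kb. By gene, the median width was 422 to 446.5 bp at NFE2L1, NFE2L3, MAFG and BACH2, below that of all peaks. It was 604 bp at BACH1, 669 bp at MAFF, 878 bp at NFE2, 969 bp at MAFK and 1904 bp at NFE2L2. Peaks in the first 7 Mb of chromosome 7, where MAFK lies, had a median width of 805 bp. In the plot of widths the narrowest, of 331 bp, were a pair in BACH2, and the widest, of 2173 bp, lay beside NFE2. The list gave no height, so whether width follows the strength of binding was not tested.

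**Figure D2:**
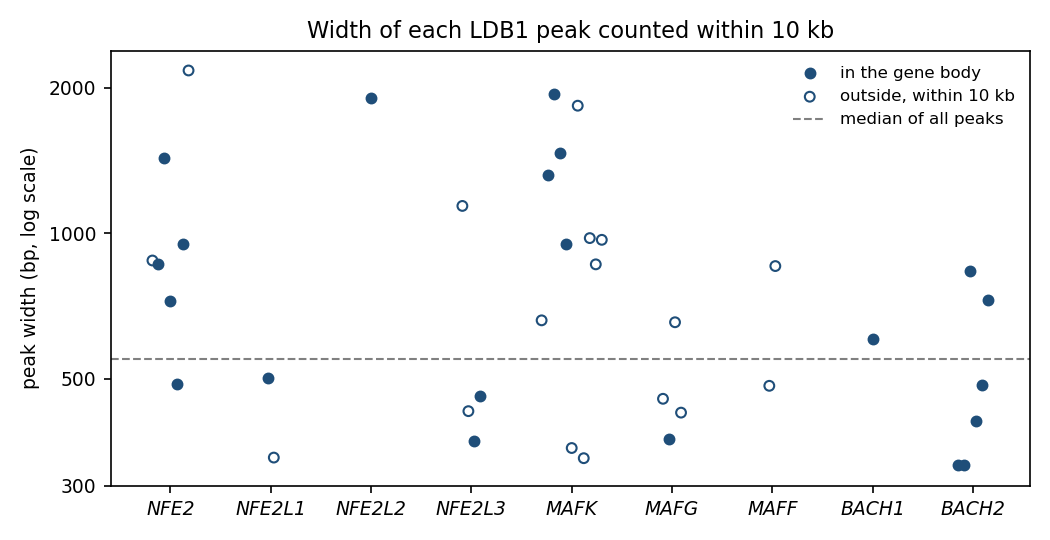
Width in bp (vertical log axis) of each of the 38 peaks, by gene; filled points lay inside the gene and open points up to 10 kb outside it, and the dashed line is the median of all peaks, 550 bp. Points over 1000 bp are at NFE2, NFE2L2, NFE2L3 and MAFK only.

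NFE2 (p45), the founding member and the blood factor of the group, was covered by peaks along its length. The gene is 8.91 kb long (chr12:54292111-54301015), and 5 peaks had their midpoints inside it. From the lower coordinate these were 863, 1431, 723, 488 and 949 bp wide. The first lay 0.636 kb from the lower end, and the 949 bp peak straddled the higher end with its midpoint 0.0560 kb from it. Of the gene's bases, 45.3% were under a peak, where the median over protein-coding genes was 0.547% and 2.12% of them had as much. None of the 22 protein-coding genes within 500 kb had a larger covered share, though 2 of them had more peaks by the 10 kb rule.

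The peaks outside NFE2 stood on both sides of it. The widest, 2173 bp at chr12:54304102-54306274, had its midpoint 4.17 kb beyond the higher end, inside no annotated gene, and NFE2 was the nearest protein-coding gene. Only 2.09% of all peaks were as wide. On the other side an 878 bp peak lay 3.29 kb from the lower end and nearer to HNRNPA1, an RNA-binding protein gene. With peaks 1 kb or less apart joined, the first 4 peaks inside the gene became 1 region of 5416 bp, and the gene's count went from 7 to 4. NFE2 had 7 peaks where 9.54% of all genes, and 4.81% of those of like length, had as many.

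NFE2L1, which encodes NRF1, a factor held in the endoplasmic reticulum that drives proteasome genes, had 2 narrow peaks. A 501 bp peak lay inside the 13.2 kb gene (chr17:48048359-48061545), 6.15 kb after the nearer of its annotated starts. A 343 bp peak lay 4.17 kb beyond its other end, toward CBX1. Neither annotated start had a peak. A further peak lay just past the limit, 10.99 kb outside the gene and inside COPZ2, which begins 0.306 kb from NFE2L1.

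NFE2L2, which encodes NRF2, the master factor of the oxidative stress response, had a single peak, and it lay on the start. It was 1904 bp wide (chr2:177263626-177265529), a width that 3.14% of all peaks reached, and it covered both annotated starts of the gene. The rest of the 34.4 kb gene (chr2:177230303-177264727) held no midpoint. The nearest other peaks were 51.6 kb away on the gene's side and 182 kb away on the upstream side. The 5 peaks added at 50 kb all lay beyond the gene's transcription end, around HNRNPA3, and were 408 to 792 bp wide.

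NFE2L3, which encodes NRF3, had 4 peaks in and before a gene of 34.9 kb (chr7:26152198-26187137). The widest, 1139 bp, lay 4.07 kb upstream of the start. A 428 bp peak had its midpoint 291.5 bp upstream of the start. Another 2, of 372 and 460 bp, lay 23.5 and 24.3 kb into the gene with 373 bp between them. None of the 4 was within 10 kb of another protein-coding gene.

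**Figure D3:**
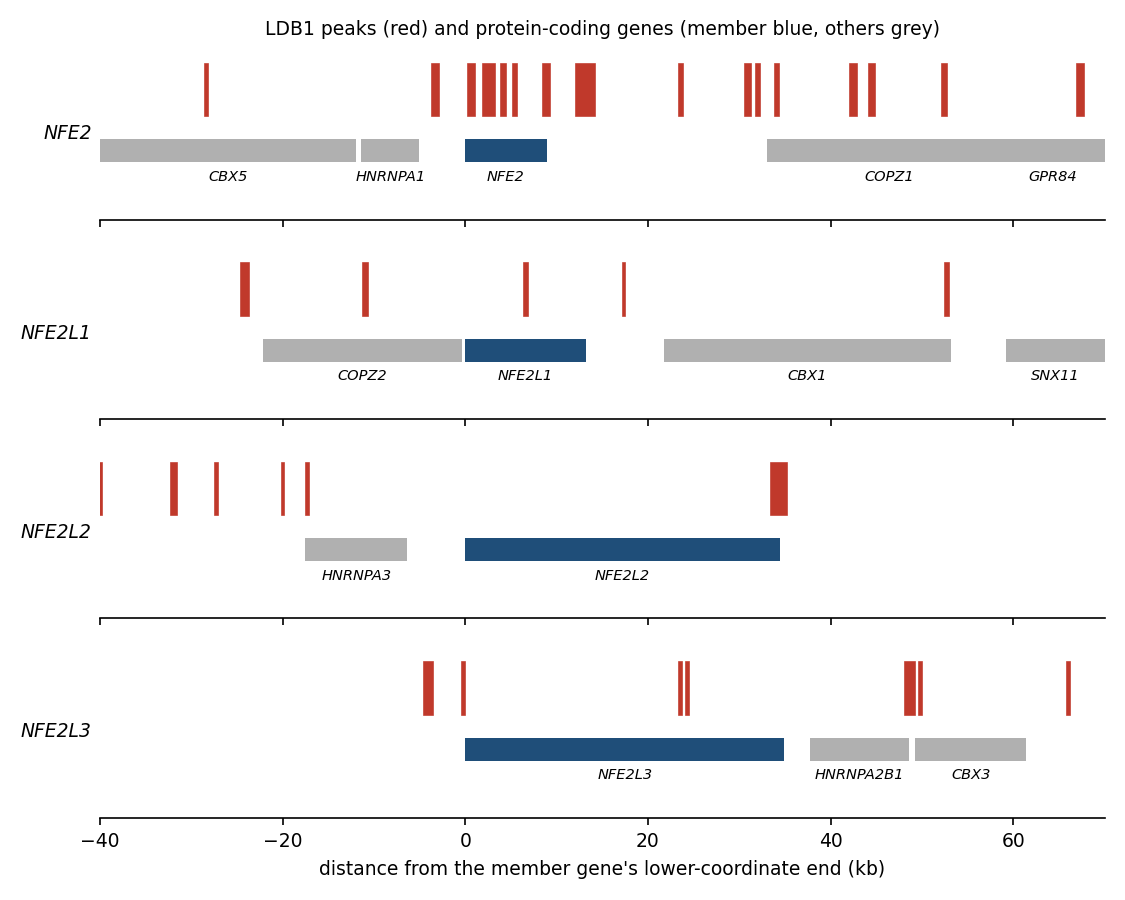
Peaks (red) and protein-coding genes (blue for the named member, grey for others) around NFE2 and its 3 relatives, in kb from the lower-coordinate end of each gene. Peaks crowd on NFE2, while NFE2L2 has 1 wide peak at its higher-coordinate end, where transcription starts.

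MAFK, the small MAF protein first found as the p18 partner of NFE2, had the most peaks of the 9, with 11. The gene is 12.3 kb long (chr7:1530702-1543043). The 4 midpoints inside it belonged to peaks of 1322, 1947, 1468 and 950 bp, and 46.1% of its bases were covered, a share that 2.02% of protein-coding genes reached. A 660 bp peak lay 7.16 kb below it. The other 6, of 342 to 1837 bp, had midpoints inside TMEM184A, which overlaps the end of MAFK. With peaks 1 kb or less apart joined, those 6 became 1 region of 8114 bp, and the count for MAFK went from 11 to 5.

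The count at MAFK was like that of its surroundings. The first 7 Mb of chromosome 7 held 1263 peaks and 79 protein-coding genes, of which 78 had a peak within 10 kb, and the median there was 10 peaks per gene. In that stretch 37 genes had more peaks than MAFK and 18 had a larger covered share. All 12 protein-coding genes within 500 kb of MAFK had peaks, with a median of 14, and 8 of them had more than MAFK. TMEM184A had 15, of which 10 were also counted for MAFK. INTS1, a subunit of the Integrator complex, had 16, and PSMG3, a proteasome assembly factor gene, had 6. The 1 Mb centred on MAFK held 296 peaks, a number that 0.0751% of protein-coding genes reached. Without MAFK the other 8 genes had 27 peaks.

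MAFG, a small MAF protein of most tissues, also lay in a dense region, but its own peaks were narrow. The 4 peaks were 375 to 654 bp wide. Only 1 midpoint, of the 375 bp peak, was inside the 12.975 kb gene (chr17:81918270-81931244), 0.338 kb from the end where transcription stops. The others lay inside SIRT7, PYCR1 and MYADML2, the last of them 9.60 kb away and just inside the limit. The nearest midpoint to the annotated start used for its promoter window was 6.56 kb from it. That start lies inside the gene, whose higher end was 3.05 kb from the same midpoint. The 1 Mb around MAFG held 150 peaks, as many as 1.62% of genes reached, and 19 of the 44 genes within 500 kb had more peaks than MAFG.

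MAFF, a small MAF gene induced by stress and inflammatory signals, had 2 peaks, both inside its neighbour TMEM184B, which overlaps its end. They were 483 and 855 bp wide and lay 4.01 and 6.65 kb beyond the gene (chr22:38201994-38216511). The gene had no base under a peak, as had 42.4% of protein-coding genes, and the nearest midpoint to its starts was 17.5 kb away. A further peak in TMEM184B missed the limit at 10.3 kb. Whether the peaks in TMEM184B act on either gene was not measured.

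BACH1, the haem-sensing repressor that competes with NRF2 for small MAF partners, had 1 peak, and it stood alone. It was 604 bp wide (chr21:29298948-29299551) at the start of a 62.97 kb gene (chr21:29298922-29361894). The next peak was 1.28 Mb away on the lower side and 482.7 kb away on the higher side. Only 162 of the 52765 peaks were as far from their nearest neighbour, and 15 of those 162 (9.26%) lay at a protein-coding gene end, against 14.9% of all peaks. Of the 7 protein-coding genes within 500 kb of BACH1, GRIK1 had peaks (2) and the other 6 had none. At least as many peaks as the 2 in the 1 Mb around BACH1 were found around 97.9% of protein-coding genes.

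BACH2, the repressor that shapes B and T cell fate, had 6 peaks spread over a gene of 370.3 kb (chr6:89926528-90296843). They were 331, 331, 836, 409, 484 and 727 bp wide in order of coordinate. The last had its midpoint 0.825 kb into the gene from its annotated start, without reaching the promoter window. The first 3 lay in the final 24.3 kb of the gene. The widest gap, of 171.8 kb, separated the peak near the start from the next one. Per length BACH2 was thin, with 0.154 peaks per 10 kb, against 0.121 at BACH1 and 2.42 at NFE2. None of the 6 genes within 500 kb had more peaks than BACH2, and 5 of them had none. Of genes of like length, 21.7% had as many peaks as BACH2 by the 10 kb rule.

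**Figure D4:**
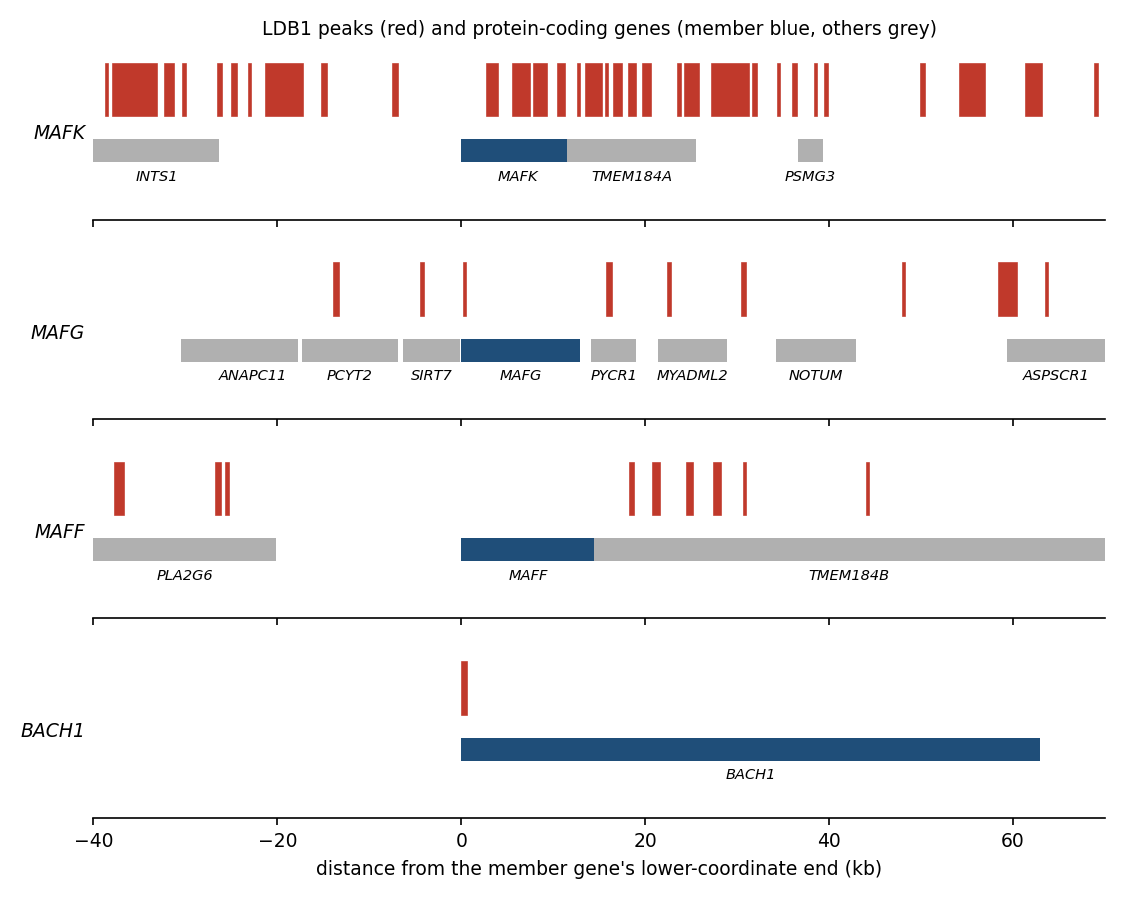
Peaks (red) and protein-coding genes around the small MAF genes and BACH1, drawn as for NFE2, in kb from the lower-coordinate end of each gene. Peaks run across MAFK and all its neighbours, those counted for MAFF sit in TMEM184B, and BACH1 has 1 peak at its start.

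Setting each gene beside the rest of the 1 Mb around it gave different values for NFE2 and MAFK. NFE2 had 2.42 peaks per 10 kb over the gene and its 10 kb flanks, 5.34 times the 0.453 per 10 kb of the rest. MAFK had 3.40 against 2.95, a ratio of 1.15. The ratio was 11.1 at BACH1, where the rest held 1 peak, and 5.29 at NFE2L3, where it held 13. It lay between 1.27 and 1.87 at NFE2L1, NFE2L2, MAFF and BACH2, and was 0.803 at MAFG. A ratio as high as that of NFE2 was found at 6.74% of the 19435 genes for which it could be formed, and one as high as that of NFE2L3 at 6.88%. For MAFK the share was 44.1%.

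**Figure D5:**
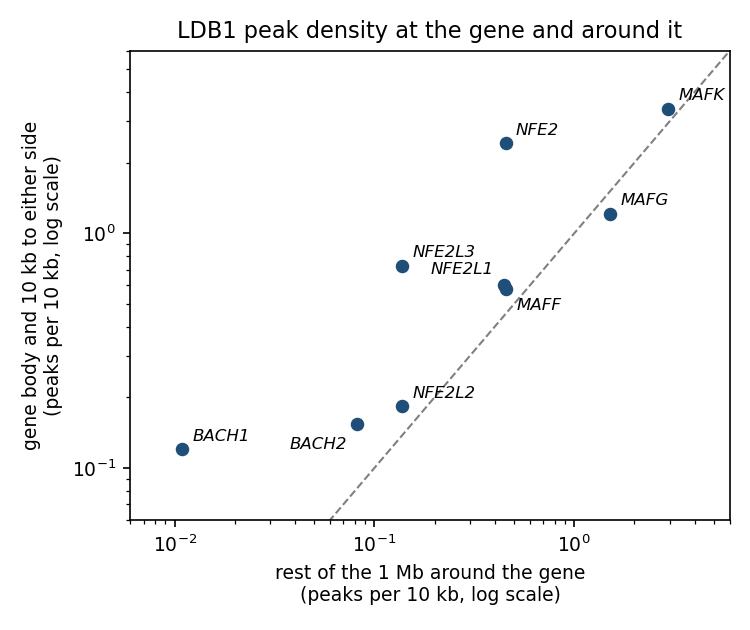
LDB1 peaks per 10 kb over each gene with 10 kb to either side (vertical log axis) against peaks per 10 kb in the rest of the 1 Mb around it (horizontal log axis); the dashed line marks equal density. NFE2, NFE2L3 and BACH1 stand well above the line, and MAFK and MAFG lie close to it.

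Other genes of the pathway were counted by the same rule, from lists chosen with earlier results known. All 4 large MAF genes, whose proteins carry their own activation domain, had a peak. The share was 70.1% of all genes and 69.4% of genes of like length. MAFA had 7, MAF 6 and NRL 1. Of the 4 only MAF had a peak inside the gene, where 54.5% of all protein-coding genes had one. Among 10 genes that control the stability or processing of NRF2, NRF1 and BACH1, 8 (80%) had a peak, against 70.1% of all genes and 73.5% of genes of like length. SQSTM1, which encodes the autophagy receptor p62 that draws KEAP1 off NRF2, had 12 with the widest at 1278 bp. KEAP1, the adaptor that marks NRF2 for destruction, had 3, and BTRC and FBXL17, both ubiquitin ligase adaptors, had 2 each. NGLY1 and RBX1 had none.

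Of 20 target genes of NRF2 and BACH1, 17 (85%) had a peak, against 70.1% of all genes, and the median was 1 peak, as over all genes. TKT, which encodes transketolase of the pentose phosphate pathway, and OSGIN1 had 6 peaks each, and FTH1, the ferritin heavy chain gene, had 5 within 10 kb and none inside the gene. GCLC and NQO1, classic NRF2 targets, and SLC7A11, the cystine transporter gene, had none. All 6 genes of platelets and haem synthesis tied to NFE2 had peaks inside the gene, as had 54.5% of all genes, with 3 to 9 by the 10 kb rule. TBXAS1, the thromboxane synthase gene, had 9, TUBB1, the platelet tubulin gene, had 5, and UROD, of haem synthesis, had 4.

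Proteasome subunit genes, which NRF1 drives, had peaks least often of the lists counted by the 10 kb rule, though not by the 50 kb rule. Of 31, 12 (38.7%) had a peak by the 10 kb rule, against 70.1% of all genes and 68.2% of genes of like length. PSMD12 had 4, and PSMD8, PSMB7 and PSMA1 had 3 each, the widest of them 3225 bp at PSMD8. PSMA2, PSMA3 and PSMA4 were among the 19 without. With 50 kb the count was 26 of 31 (83.9%), close to the 86.1% of all genes. For comparison with another bZIP family, 10 of 11 AP-1 genes had a peak, with a median of 2, and FOSB had none. The share was 70.1% of all genes and 65.4% of genes of like length. JUNB had 7 peaks, ATF3 6, FOSL2 5 and FOSL1 3. All 6 CEBP genes had a peak, with a median of 2.5, against 70.1% of all genes and 58.2% of genes of like length. Differences between lists were not tested.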

How the data were processed

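The LDB1 sites of untreated NB4 cells were taken from the authors' deposited peak list, which per the file headers gives chromosome, start, end and length in bp, with no signal, score or count. Length equalled end minus start plus 1 in every row. Per the submitters' processing notes, the build was hg38 and the tools were the read aligner Bowtie2 2.4.1 and the peak caller MACS2 2.0.10. How the threshold was set, how duplicate reads were handled and whether IgG served as control is not given in the sources used here. Peak number and width depend on all of these, and whether open-chromatin background is among the peaks was not tested. The 977 peaks on other contigs were left out.

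Peak midpoints were assigned to RefSeq GRCh38.p14 genes with pandas 2.3.3 and Python 3.11.15, and the counting was tested on simulated data. Promoter windows and strands came from RefSeq, and peak sequences were not searched. With 1 library per antibody no test was run and no p-value is given. The genes and lists were chosen with earlier results of these data known. Named in each list were the 4 genes with most peaks and up to 3 without, and a few of these are not reported here. Alternatives changed distance, peak width, overlap or joining.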

Additional observations from a re-analysis of the deposited data

How the results depend on the processing

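By the 10 kb rule the 9 genes with a peak stayed 9 at 5 kb and with any overlap, where 65 and 70.4% of all protein-coding genes had one. They became 8 with gene bodies only and 8 if only the widest 50% counted, against 54.5 and 52.4% of all protein-coding genes. They became 6 if only the widest 25% did (NFE2L1, MAFG and BACH1 dropped out), where 34.8% of all protein-coding genes still had one. By the 50 kb rule 8 of 9 had a peak with the widest 25%, BACH1 being the exception, against 52.4% of all protein-coding genes. The 38 peaks became 21 with gene bodies only, 96 at 50 kb, 22 when only the widest 50% were kept and 17 when only 25% were. The 7 genes with a peak at an end became 6 with 500 bp, 4 with the widest 50% and 2 (NFE2 and NFE2L2) with the widest 25%, where 26.8, 24.1 and 13.9% of all protein-coding genes had one. With gene bodies only, the large MAF count fell to 1 of 4 and the proteasome count to 7 of 31, against 54.5% of all protein-coding genes. With the widest 50% the regulator count was 4 of 10 and the target count 11 of 20, against 52.4%. With the widest 25% the counts were 1 of 4 large MAF genes, 2 of 10 regulators and 7 of 20 targets. They were 7 of 31 for proteasome genes and 5 of 11 for AP-1 genes, where 34.8% of all protein-coding genes had a peak. All 6 platelet and haem genes kept a peak in each of these settings. At 50 kb the proteasome count was 26 of 31, against 86.1%. These changes follow from counting fewer or more peaks, since each setting alters the peaks or the distance. No paired analysis was possible because each antibody had 1 library. Depth limits what a missing peak means, and it is unknown here.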

Other observations

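Genes next to NFE2 and its relatives included several of the same families, and part of the peaks counted for them were peaks already counted for the members. These neighbours were picked once the values were known, and no test was made. HNRNPA1, HNRNPA3 and HNRNPA2B1, which encode related RNA-binding proteins, lay 5.02, 6.34 and 2.79 kb from NFE2, NFE2L2 and NFE2L3. HNRNPA1 had 4 peaks by the 10 kb rule, all 4 also counted for NFE2 and none inside HNRNPA1. HNRNPA3 had 3 and HNRNPA2B1 had 2, none of them counted for a member. The heterochromatin protein genes CBX5, CBX1 and CBX3 lay 11.99, 8.51 and 14.3 kb from NFE2, NFE2L1 and NFE2L3. CBX5 and CBX1 had 2 peaks each, 1 of them shared with the member, and CBX3 had 3, of which 2 were those of HNRNPA2B1. One of these, 1146 bp wide (chr7:26200231-26201376), reached across an end of HNRNPA2B1 and stopped short of CBX3. COPZ1, a coat protein gene, lay 24.1 kb from NFE2 and had 8 peaks, none counted for NFE2, and its relative COPZ2, beside NFE2L1, had 3, of which 1 was shared.

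TMEM184A overlapped MAFK and TMEM184B overlapped MAFF. TMEM184A had 15 peaks by the 10 kb rule, 10 of them also counted for MAFK, and 49.8% of its bases were covered. TMEM184B had 6 peaks, 2 of them also counted for MAFF, and 6.40% of its bases were covered.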
